A study of Mus musculus with 4 samples.

Results

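The chains of complement C1q and a pair of Fc receptor genes were followed over 6 h after contextual fear conditioning in hippocampal CA1 tissue of mice. The members were all spots that the platform annotation assigns to C1qa, C1qb, C1qc, Fcer1g or Fcgr2b. They numbered 6 of the 16281 spots in the deposited table and 5 of the 10698 genes with a spot of their own, 1 spot for each gene except Fcgr2b, which had 2. They were chosen by their log ratios on these same arrays, so those values are given as a description, with no test. All 6 spots had a ratio on each of the 4 arrays, and none was lost to an exact 0, which was read as no measured ratio.

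The MK C+S mice were young C57BL/6J males that received MK-801, a blocker of the NMDA type of glutamate receptor, 1 h before conditioning. Conditioning was 2 min in a new chamber and then a foot shock of 0.5 mA for 1 s, repeated to give 3 shocks. The MK mice, of the same sex and strain, received MK-801 and no conditioning, so both groups carried the drug. The labels give its dose as 300 micrograms per g body weight. CA1 RNA of the MK C+S mice (Cyanine-5, red) was hybridised against CA1 RNA of the MK mice (Cyanine-3, green) on 1 array at each of 1, 2, 4 and 6 h after the last shock. The labels leave out the number of animals behind an array. No time had a second array and no array had the dyes turned round, so conditioning and a dye effect cannot be told apart.

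Complement C1q is the recognition molecule of the classical complement pathway, built from A, B and C chains that are encoded by C1qa, C1qb and C1qc. In the brain it is made largely by microglia, the resident macrophages, and it is known for tagging synapses that are then removed. Fcer1g encodes the common gamma chain, an adaptor that activating receptors for IgG and IgE need in order to reach the surface and to signal through its ITAM motif. Fcgr2b encodes the inhibitory IgG receptor, whose ITIM motif recruits phosphatases that dampen those signals. C1qb, C1qc and C1qa follow each other as neighbouring protein genes on chromosome 4, and Fcer1g and Fcgr2b lie on chromosome 1, the second next to Fcgr4, by the order of genes in RefSeq's mouse assembly.

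The promoters of 4 of the 5 genes are shown because macrophage genes are known for sites of PU.1, the factor encoded by Spi1, which was itself measured on these arrays. Each runs from 250 bases before the start site to 50 after it, 5′ to 3′ in the direction of the gene, from RefSeq on GRCm38.p6. Capitals mark AGGAAG or its reverse complement CTTCCT, a core of PU.1 sites.
C1qb, chr4:136886151-136886450, minus strand: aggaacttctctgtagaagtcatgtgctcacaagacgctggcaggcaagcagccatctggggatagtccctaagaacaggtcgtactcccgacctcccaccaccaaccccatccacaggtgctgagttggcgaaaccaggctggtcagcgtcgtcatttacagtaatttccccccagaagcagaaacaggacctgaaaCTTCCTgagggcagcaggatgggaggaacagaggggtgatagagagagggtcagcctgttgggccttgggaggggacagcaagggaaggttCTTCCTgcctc
C1qc, chr4:136892865-136893164, minus strand: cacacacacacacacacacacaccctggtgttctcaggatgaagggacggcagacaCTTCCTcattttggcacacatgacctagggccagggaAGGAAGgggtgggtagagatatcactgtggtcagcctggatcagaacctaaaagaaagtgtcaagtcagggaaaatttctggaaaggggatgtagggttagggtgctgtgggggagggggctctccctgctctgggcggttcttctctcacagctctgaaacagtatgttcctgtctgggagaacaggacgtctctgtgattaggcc
Fcer1g, chr1:171234300-171234599, minus strand: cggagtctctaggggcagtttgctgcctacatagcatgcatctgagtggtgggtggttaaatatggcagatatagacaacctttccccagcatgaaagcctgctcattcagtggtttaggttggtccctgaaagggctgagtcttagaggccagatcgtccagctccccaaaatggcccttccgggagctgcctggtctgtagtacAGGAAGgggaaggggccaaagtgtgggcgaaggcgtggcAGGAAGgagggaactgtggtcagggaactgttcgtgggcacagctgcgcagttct
Fcgr2b, chr1:170976022-170976321, minus strand: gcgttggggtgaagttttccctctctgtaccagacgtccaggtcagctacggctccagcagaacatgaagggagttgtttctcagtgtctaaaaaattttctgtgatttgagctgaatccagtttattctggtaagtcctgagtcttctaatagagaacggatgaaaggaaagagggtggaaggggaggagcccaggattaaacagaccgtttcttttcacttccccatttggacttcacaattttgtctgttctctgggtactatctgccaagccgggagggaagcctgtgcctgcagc
The motif was found 2 times in the promoters of C1qb, C1qc and Fcer1g and 0 times in that of Fcgr2b. Of all 32851 promoter windows of this length, 35.4% hold it on at least 1 strand. The longer GAGGAAGT (reverse complement ACTTCCTC), which contains the shorter motif, was found in the C1qc window alone among the 4, and 3.2% of all windows hold it. A match is a description of the letters and not evidence of a bound site.

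The deposited values were log ratios, read here as base-10 logs. Red over green is the common convention, which would make positive values higher in MK C+S than in MK, so this direction is likely, but neither it nor the base is stated. Each array was centred on the median of its measured spots, and an absolute log ratio of at least 0.301 was counted as 2-fold. With no replicate array, the only error available within a time is the pooled SD between different spots of the same gene, which was 0.225, 0.204, 0.168 and 0.329 at 1, 2, 4 and 6 h. Between 12586 and 15078 spots were measured on an array. A ratio gives no level, so the labelled tissue could not be checked by its markers. CA1 pyramidal markers were positive in 4 of 4, 2 of 3, 2 of 3 and 2 of 3 measured genes at 1, 2, 4 and 6 h, with medians of 0.072, 0.10, 0.24 and 0.035, the last at -0.0085 after subtraction of a running median of 51 spots. Wfs1 and Zbtb20 were positive on all 4 arrays, while Man1a was positive at 1 h alone, and the Wfs1 spot, 12889, lies next but one to that of Fcer1g, 12891. In such tissue RNA, fewer cells of a type and less RNA per cell cannot be told apart.

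The 5 genes did not lie on one side of 0. C1qb and Fcer1g had positive log ratios on all 4 arrays, C1qc and Fcgr2b had negative ones on all 4, and C1qa was negative at 1, 2 and 6 h and positive at 4 h. Of the 8553 genes with a value on every array, 10.1% were positive on all 4 and 11.8% negative on all 4. No member gene changed sign when the centring was left out, when exact zeros were kept as a ratio of 1 or when a running median over neighbouring spots was removed. At each time 1 of the 5 genes, Fcgr2b, passed 2-fold, against 8.47%, 6.58%, 7.07% and 21.9% of all measured genes at 1, 2, 4 and 6 h. In its negative direction the shares of all genes were 3.35%, 4.14%, 4.58% and 11.7%. In the positive direction 0 members passed, against 5.12%, 2.44%, 2.49% and 10.2% of all genes.

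**Figure D1:**
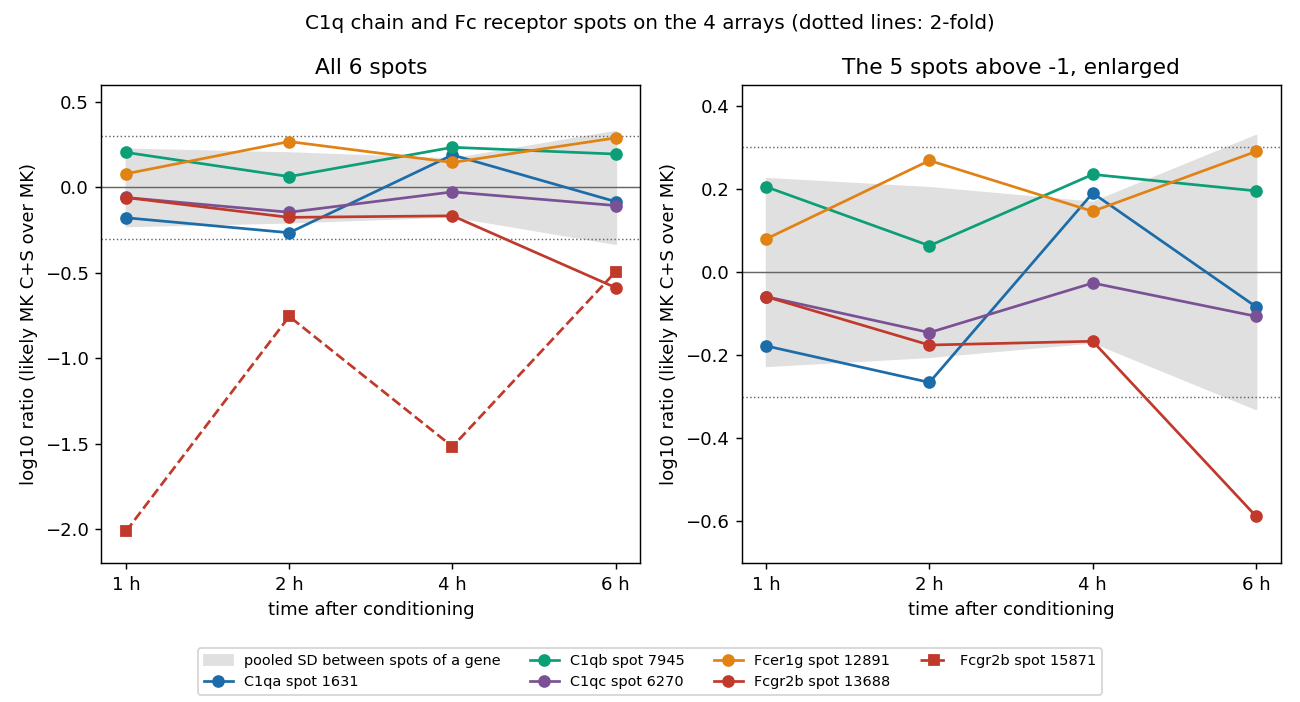
Log10 ratio (likely MK C+S over MK, vertical axis) of the 6 spots of the C1q chain and Fc receptor genes at 1, 2, 4 and 6 h after conditioning (horizontal axis), 1 array a time, with all spots on the left and all but Fcgr2b spot 15871 enlarged on the right; grey bands are 1 pooled SD between spots of the same gene and dotted lines mark 2-fold. C1qb and Fcer1g stay above 0 at every time, C1qc and both Fcgr2b spots stay below it, and spot 15871 reaches -2.01 at 1 h.

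C1qb, the B chain, had log ratios of 0.20, 0.063, 0.23 and 0.20 at 1, 2, 4 and 6 h. Those are ratios of 1.603, 1.16, 1.72 and 1.57 if the logs are base 10. All 4 values were positive, and that at 2 h was the smallest. Only the 4 h value exceeded the pooled spot SD of its array, at 1.39 times that SD. The mean over the times was 0.17 ± 0.076 (SD, n = 4 arrays), above 96.0% of the genes with a value on every array.

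C1qa, the A chain, had log ratios of -0.18, -0.27, 0.19 and -0.083. The values at 1, 2 and 6 h lay below 0 and the 4 h value above it. At 2 h and 4 h they exceeded the pooled spot SD, at 1.304 and 1.13 times. The mean of -0.084 ± 0.197 (SD, n = 4 arrays) was smaller than the spread between times, and was -0.053, -0.024 and -0.18 without the 1, 2 and 4 h array.

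C1qc, the C chain, had log ratios of -0.059, -0.15, -0.026 and -0.11. All were below 0, and none exceeded the pooled spot SD of its array. The mean was -0.084 ± 0.052 (SD, n = 4 arrays).

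Among the chains of this one protein, C1qb was the highest at every time. C1qa was the lowest at 1 and 2 h, and C1qc at 4 and 6 h. The distance between the highest and the lowest chain was 0.38, 0.33, 0.26 and 0.302 log10 units at 1, 2, 4 and 6 h. The pooled SD between spots of the same gene was 0.225, 0.204, 0.168 and 0.329 at those times, so the 6 h distance was smaller than that SD. C1qb lay above C1qc by between 0.21 and 0.302 at each time. C1qa minus C1qc was -0.12 at 1 and 2 h, 0.22 at 4 h and 0.023 at 6 h. Each chain had a single spot, so no chain has a second probe to check it.

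Fcer1g, the common gamma chain, had log ratios of 0.080, 0.27, 0.15 and 0.29 at 1, 2, 4 and 6 h, or ratios of 1.201, 1.85, 1.399 and 1.95. All were positive, and the values at 2 and 6 h came closest to 2-fold without passing it. The 2 h value alone exceeded the pooled spot SD, at 1.32 times. The mean was 0.196 ± 0.100 (SD, n = 4 arrays), above 97.1% of genes.

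Spots near Fcer1g and C1qb were not all at 0. At 2 h the median of the measured spots within 50 numbers of the Fcer1g spot was 0.11, and after removal of a running median over 51 spots Fcer1g was at 0.12 in place of 0.27. At 1 h C1qb was at 0.11 after the same correction in place of 0.20. At 6 h both moved away from 0, to 0.34 for Fcer1g and 0.32 for C1qb, so that 3 of the 5 genes passed 2-fold there, as did 1921 of 10102 measured genes under that correction.

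The receptor chains that pair with Fcer1g, named here after their values were seen, lay on the same side of 0 at some times only. Fcgr1, the high-affinity IgG receptor, had log ratios of -0.044, 0.15, 0.19 and -0.021. Fcgr3, an activating receptor of low affinity, was at -0.068, 0.037, 0.22 and 0.099, and Fcer1a, the ligand-binding chain of the IgE receptor, at 0.12, 0.086, 0.18 and -0.12. At 2 and 4 h all of these were positive, as Fcer1g was, and at 1 and 6 h they lay on both sides of 0. Tyrobp, an adaptor with an ITAM that serves Trem2 and other microglial receptors, was at 0.13, 0.045, -0.12 and 0.20.

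Fcgr2b, the inhibitory receptor, was measured by 2 spots that differed. Spot 15871 had log ratios of -2.01, -0.76, -1.52 and -0.49 at 1, 2, 4 and 6 h, or ratios of 0.00967, 0.176, 0.0303 and 0.321. Spot 13688 had log ratios of -0.059, -0.18, -0.17 and -0.59, or ratios of 0.872, 0.667, 0.682 and 0.259. Both lay below 0 on every array, but the first was farthest from 0 at 1 h and nearest at 6 h, and the second the other way round. Spot 15871 passed 2-fold at all 4 times and spot 13688 at 6 h.

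The gene value of Fcgr2b, the mean of both spots, was -1.04, -0.47, -0.84 and -0.54. Its mean over the times was -0.72 ± 0.27 (SD, n = 4 arrays), but -1.20 by spot 15871 and -0.25 by spot 13688. The gene was past 2-fold in the negative direction on all 4 arrays, as were 5 of 8553 genes or 0.0585%. Without spot 15871 it would pass 2-fold at 6 h alone.

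The gap between the Fcgr2b spots was 1.96 at 1 h, where 5 of 1485 genes with 2 measured spots had a larger one. At 4 h it was 1.35, with 1 of 2284 genes above it, and at 2 h 0.58, with 111 of 2222 above. At 6 h it was 0.094, smaller than in 1677 of 2191 genes. The median gap of such genes was 0.140, 0.143, 0.131 and 0.244 at 1, 2, 4 and 6 h.

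**Figure D2:**
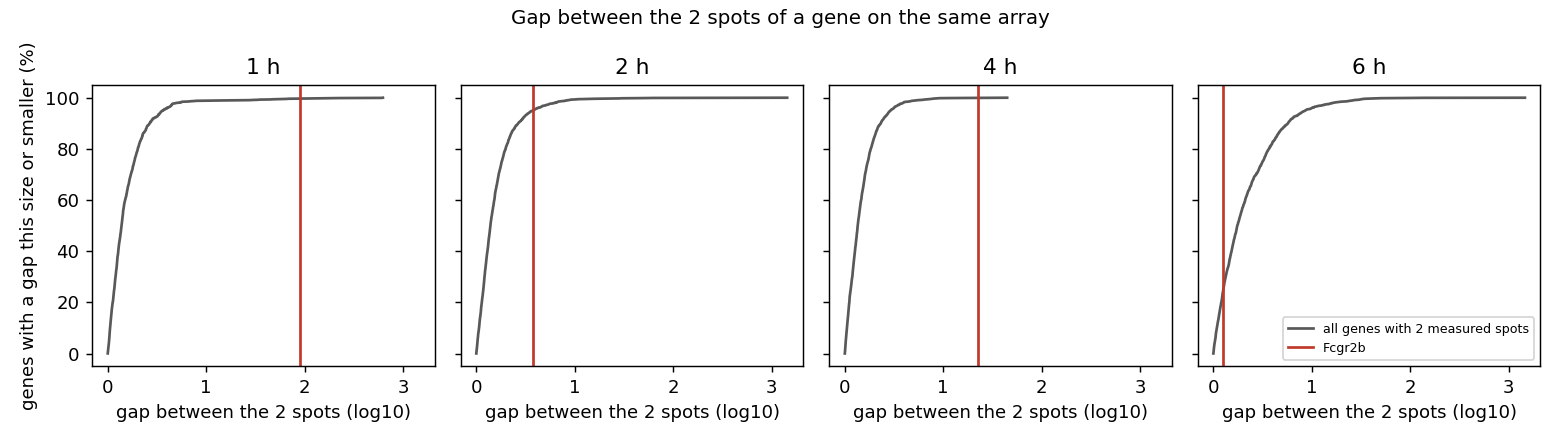
Cumulative share of genes with exactly 2 measured spots (vertical axis, percent) by the absolute gap between those spots in log10 units (horizontal axis), 1 panel per array at 1, 2, 4 and 6 h; the red line is Fcgr2b. Its gap lies at the far end of the curve at 1 h (1.96) and 4 h (1.35) and among the small gaps at 6 h (0.094).

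Other low spots lay close in number to spot 15871. Within 50 numbers of it, 17.7%, 17.4%, 15.9% and 37.0% of the measured spots were past 2-fold in the negative direction at 1, 2, 4 and 6 h, against 4.14%, 5.03%, 5.03% and 12.8% of all measured spots. The medians of those neighbours were close to 0 at 1 h (0.027) and 4 h (-0.0063) and negative at 2 h (-0.060) and 6 h (-0.13), so a minority of spots made up the difference. Spot 15871 was lower than all 79 neighbours at 1 h and lower than 80 of 86 at 2 h, 80 of 82 at 4 h and 69 of 92 at 6 h. With the running median removed its 6 h value was -0.19, under 2-fold.

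Of 11488 spots with a ratio on every array, 10 were past 2-fold in the negative direction on all 4. Besides spot 15871 they included spot 15868 of Lin7c, a scaffold protein of synapses, spot 15857 of Fbln2, an extracellular matrix protein, and spot 15853 of Cacna1b, the pore of N-type calcium channels. Spot 15868 read -1.69, -1.41, -1.79 and -0.73 at 1, 2, 4 and 6 h, while the other spots of Lin7c lay between -0.23 and 0.085. Immune genes in the same stretch differed among themselves. Cd68, a lysosomal marker of microglia at spot 15844, was at 0.27, -0.059, 0.20 and 0.059, while Btk, a kinase of immune receptors at spot 15825, was at -1.38 at 1 h and -1.998 at 6 h with no ratio between. Spot numbers are those of the table, and no map of the glass was used. Whether the values of spot 15871 belong to Fcgr2b or to that stretch of spots was not tested.

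**Figure D3:**
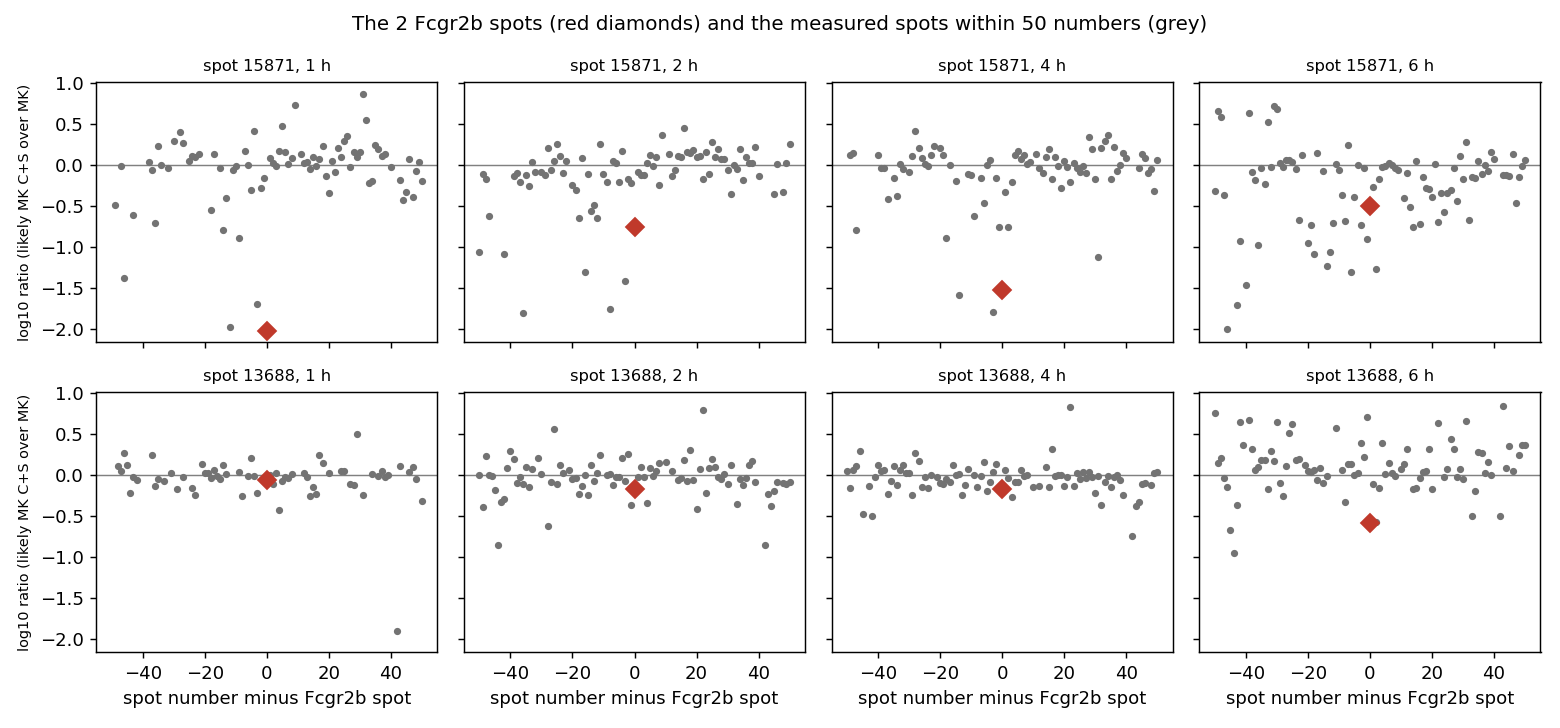
Log10 ratio (likely MK C+S over MK, vertical axis) of the measured spots within 50 numbers of each Fcgr2b spot, by distance in spot number (horizontal axis), with 1 column per array and the Fcgr2b spot as a red diamond at 0. Around spot 15871 (top row) other spots fall below -1 at each time. Around spot 13688 (bottom row) the medians lie between -0.028 and 0.087, and the Fcgr2b spot passes 2-fold only at 6 h (-0.59). Of its neighbours, 11.2% were past 2-fold in the negative direction at 2 h, against 5.03% of all spots. At 6 h 22 of 87 were past 2-fold in the positive direction and 7 in the negative.

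Likeness between genes was measured as the root mean square difference of the log ratios over the 4 arrays. For C1qa the nearest genes were Oaz2, an inhibitor of polyamine synthesis (0.022), Atp5e, a subunit of ATP synthase (0.047), and Hsd17b12 (0.052). For C1qb they were the transcriptional cofactor Zfpm1 (0.031), the autophagy adaptor Wdfy3 (0.034) and Kremen1, a Wnt pathway receptor (0.038). For C1qc they were the splicing factor Srsf9 (0.014), the peptidase Cndp2 (0.018) and 2810032G03Rik (0.019). For Fcer1g they were the transcription factor Mecom (0.041), Ceacam13 (0.041) and Sh2d4a (0.042). For Fcgr2b they were Lin7c (0.23), Fmr1, an RNA-binding protein of synapses (0.35), and the cyclin Ccnt1 (0.37). None of these was a member or a gene of the pathway and marker lists. The values of Fcgr2b and Lin7c are means that include the low spots 15871 and 15868, so their nearness rests in part on those spots. The 2 spots of Ccnt1 lay 1.47 apart at 1 h. C1qb and Fcer1g were 0.14 apart, and C1qb ranked 560 among 8552 genes by nearness to Fcer1g. C1qa and C1qc were also 0.14 apart, but C1qa ranked 2907 by nearness to C1qc, and C1qc 440 by nearness to C1qa. C1qb was 0.29 from C1qa and 0.26 from C1qc, at ranks 6157 and 7048 by nearness to those genes.

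Further genes of the complement and Fc receptor pathways were read from lists that hold no member. No gene of any list passed limma's test at an adjusted p under 0.05, in the mean over the 4 times or in the slope on hours. Across all 8553 genes these tests called 0 (0%), with 973 genes (11.4%, of which 4.26% positive and 7.12% negative) in the mean and 1250 (14.6%, of which 4.64% positive and 9.97% negative) in the slope at an unadjusted p under 0.05. The lowest adjusted p was 0.0609 for the mean and 0.106 for the slope. Only differences between times could serve as error, and the SD over the 4 arrays of the pathway and microglia genes given with a mean ran from 0.043 (Dok2) to 0.250 (C1qtnf2).

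Of 15 measured complement components other than C1q, 7 of 10 were positive at 1 h, 9 of 14 at 2 h, 9 of 14 at 4 h and 7 of 12 at 6 h. Their median log ratios were 0.048, 0.076, 0.074 and 0.062, against 0.0013, -0.00074, -0.00095 and -0.0062 over all measured genes. The 1 h median was -0.018 with the running median removed. C4b, the fourth component and a substrate of activated C1, had a mean of 0.0996 (0.060 without the 4 h array, 0.17 without the 6 h array) and lay above 0 at 1, 2 and 4 h. C6, of the membrane attack complex, had a mean of -0.16, or -0.062 without the 6 h array. C9 of the same complex had one of 0.045 (-0.026 without the 1 h array, 0.10 without the 2 h array). Masp2, a protease of the lectin pathway, was at 0.21, 0.32, -0.12 and -0.089. Its mean of 0.080 was 0.037, -0.0014, 0.15 and 0.14 without the 1, 2, 4 and 6 h array. C1ra, which encodes the protease C1r that C1q activates, ran from -0.22 at 1 h to 0.21 at 6 h and is named after its values were seen. In the slope 2 of 8 components tested, C1ra (positive) and Masp2 (negative), had an unadjusted limma p under 0.05, and in the mean 0 of 8.

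Complement receptors and regulators lay near 0, with 8 of 15, 11 of 20, 13 of 21 and 11 of 21 positive at 1, 2, 4 and 6 h and medians between 0.017 and 0.043. Cd59a, which blocks the membrane attack complex, had a mean of 0.12, as had Cd55, which speeds the decay of convertases (0.067 without the 1 h array, 0.072 without the 6 h array). Cd46, a cofactor that inactivates C3b, had a mean of 0.085 (0.038 without the 2 h array) and was positive on all 4 arrays. Cr1l, the rodent regulator Crry, had a mean of -0.16 (-0.092 without the 6 h array). Of 15 tested, 0 had an unadjusted limma p under 0.05 in the mean or the slope.

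The wider C1q domain family, secreted proteins that share the globular head of C1q, had negative medians at 1, 4 and 6 h (-0.030, -0.051 and -0.13) and a positive one at 2 h (0.028). Positive genes numbered 5 of 12, 6 of 10, 5 of 13 and 4 of 14. Of 9 genes with a value on every array, C1qtnf2 (mean -0.22) and C1qtnf12 (mean -0.17) were negative on all 4, as C1qc was. The share among all 8553 genes was 11.8%. Without the 6 h array the mean of C1qtnf2 was -0.098. C1qtnf3, a secreted adipokine, had a mean of 0.14 (0.086 without the 4 h array, 0.23 without the 1 h array). Emilin1, a matrix glycoprotein, had one of -0.11 (-0.0017 without the 4 h array, -0.18 without the 1 h array). Of 9 tested, C1qtnf12 had an unadjusted limma p under 0.05 in the mean, and C1qtnf2 and Mmrn1 in the slope, all with negative coefficients.

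Other Fc receptors were positive in 5 of 9, 6 of 9, 9 of 10 and 5 of 10 genes at 1, 2, 4 and 6 h, with medians of 0.0061, 0.037, 0.077 and 0.0078. At 4 h Fcer2a, the low-affinity IgE receptor, was the exception at -0.025. It was negative on all 4 arrays, with a mean of -0.16 (-0.082 without the 6 h array). Trim21, a cytosolic receptor for antibody-coated particles, was at 0.31, 0.25, 0.20 and -0.0012, with a mean of 0.19. Fcgrt, the neonatal receptor that recycles IgG, was positive on all 4 arrays with a mean of 0.094, and Fcamr, a receptor for IgA and IgM, had a mean of -0.12. In the mean, 1 of 9 tested, Trim21, had an unadjusted limma p under 0.05, and its adjusted p over all genes was 0.427.

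The list of ITAM and ITIM signalling genes also holds chains of other receptors, so not all of it acts downstream of Fcer1g or Fcgr2b. Its genes were split, with 20 of 37, 17 of 38, 19 of 39 and 18 of 39 positive and medians of 0.032, -0.040, -0.0043 and -0.035. The 2 h median was 0.0024 with the median of a gene's spots, and the 4 h median turned positive in that way (0.013) and with the running median removed (0.00090). Fyn, a Src family kinase abundant in neurons, had a mean of -0.24, Zap70, a kinase of T cells, of -0.21 (-0.13 without the 6 h array) and Dok2, an inhibitory adaptor, of -0.197. These were negative on all 4 arrays, and Cd79a, the ITAM chain of the B cell receptor, was positive on all 4 with a mean of 0.22. Of 32 tested in the mean, 1 positive and 4 negative genes had an unadjusted limma p under 0.05, and in the slope 1 positive and 5 negative genes. Inpp5d, the phosphatase SHIP1 that binds the ITIM of Fcgr2b, was at -0.17, 0.16, -0.13 and 0.11, named after its values were seen.

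**Figure D4:**
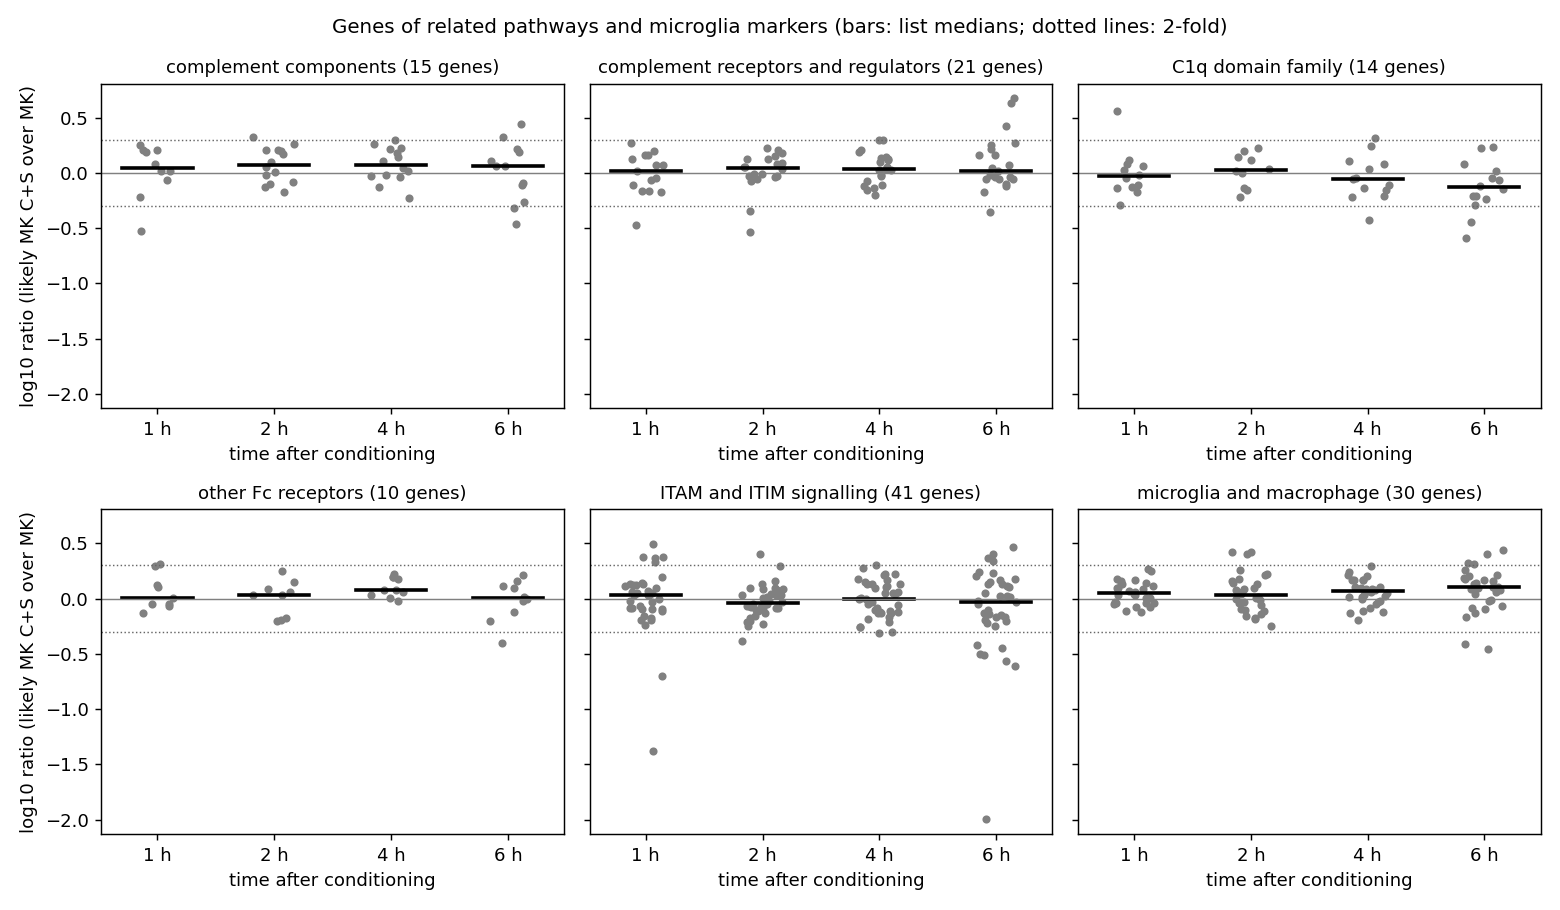
Log10 ratio (likely MK C+S over MK, vertical axis) of each measured gene in 6 lists at 1, 2, 4 and 6 h after conditioning (horizontal axis, 1 array a time); points are genes, spread sideways for visibility, black bars are list medians and dotted lines mark 2-fold. Medians of the microglia and macrophage list lie between 0.030 and 0.11, and the lowest point in the signalling panel is Btk at 6 h (-1.998).

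Markers of microglia and macrophages, without the member genes, were positive in 19 of 28, 18 of 30, 21 of 30 and 21 of 30 genes at 1, 2, 4 and 6 h. Their medians were 0.051, 0.030, 0.065 and 0.11, and 0.041 and 0.061 at 4 and 6 h with the running median removed. Spi1, the gene of PU.1, was at 0.068, 0.42, 0.297 and 0.44 and had the largest mean of the list, 0.31. Like C1qb and Fcer1g, Spi1 was positive on all 4 arrays, while C1qc and Fcgr2b were negative on all 4. A link between Spi1 and the members was not tested. The lysosomal protease gene Ctss was at 0.14, 0.058, 0.087 and 0.26, and the transcription factor gene Runx1 at 0.0100, 0.092, 0.049 and 0.40. The mean of Runx1 was 0.14, and 0.050 without the 6 h array. Cd163, a scavenger receptor of perivascular macrophages, had a mean of 0.14 (0.079 without the 6 h array, 0.21 without the 4 h array). Other markers of the list lay nearer 0. Aif1, P2ry12 and Gpr34, named after their values were seen, had means of 0.0058, 0.0038 and -0.030. These 3 were negative at 1 and 2 h and positive at 4 and 6 h, a course that the list as a whole did not share. At 1 and 2 h 19 of 28 and 18 of 30 of its genes were positive. Cx3cr1, for example, was at 0.25, -0.14, 0.10 and -0.025, and Laptm5 at 0.088, 0.21, 0.093 and -0.092.

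Of 28 such markers with a value on every array, 4 were positive on all 4 (Ctss, Spi1, Runx1 and Mrc1) and 0 were negative on all 4. The shares among all 8553 genes were 10.1% and 11.8%. Positive means numbered 23 of the 28 markers, against 3942 of all 8553 genes. C1qc and Fcgr2b, at negative values on all 4 arrays, lay on the other side of 0 from most of these markers. In the mean, 2 of 28, Spi1 and Ctss, had an unadjusted limma p under 0.05, both positive, against 11.4% of all genes in either direction. The lowest adjusted p of the list was 0.416. In the slope, Cd14 and Cd53 had an unadjusted limma p under 0.05, both negative.

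Markers of other cells in the tissue were read in the same way. Endothelial and mural markers were negative, as Fcgr2b was, in 7, 9, 10 and 6 of 11 genes at 1, 2, 4 and 6 h, with medians of -0.085, -0.18, -0.13 and -0.038, the last at 0.0059 with the running median removed. Choroid plexus markers had a median of 0.49 at 1 h and between -0.16 and -0.017 later. Astrocyte markers were positive in 4, 5, 8 and 9 of 10 genes. B cell markers, a type that carries Fcgr2b, had medians of -0.041, 0.15, 0.049 and -0.030, the last at 0.091 with the running median removed. Neutrophil medians lay between -0.097 and 0.080, mast cell medians between 0.017 and 0.12 and red blood cell medians between -0.13 and 0.071. With the running median removed the neutrophil medians at 1 and 6 h (0.0021 and -0.034), the mast cell median at 6 h (-0.017) and the astrocyte median at 2 h (-0.047) changed sign. The part of these cells in the values of C1qb, Fcer1g or Fcgr2b was not tested.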

How the data were processed

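The authors deposited 1 log ratio per spot for each of 4 arrays with 2 dyes, here read as log10 from a range of -3.10 to 1.58. Base, direction, scale, background correction and normalization are not stated. Exact zeros (7.39% to 22.7% of spots) were read as not measured, and the median of measured spots was subtracted from each column. A platform annotation paired 13738 spots with 1 gene, and 13694 of those matched RefSeq (GRCm38.p6, for names and gene order). Spots of 1 gene were averaged.

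The members and the lists were chosen with earlier results of these data known. Named genes were all members, up to 4 genes per list with the largest absolute mean among genes with a value on all 4 arrays (any gene of a list with 6 or fewer measured genes), the 3 genes nearest to each member, and others named after their values were seen (low spots and spots near those of Fcgr2b, genes counted at an unadjusted p or on 1 side of 0, and where the text says so). Some genes stand in more than 1 list. On 8553 genes, the mean over times and the slope per hour were fitted with lmFit and eBayes (limma 3.58.1, R 4.3.3), two-sided, with Benjamini-Hochberg adjustment at 0.05. Members entered these fits, but no p is given for them. Tested on simulated data with 8553 genes, the mean recovered 26 of 100 genes given a change of 0.3 (log10) and 72 of 100 given 0.6, and called 0 unchanged genes. For the slope it called 50 of 100 at a change of 1.2 from first to last array and 80 of 100 at 2.4, with 6 unchanged genes. The simulated noise had the variances of the real genes but was normal, independent between arrays and free of a dye effect. The real arrays may not meet these conditions, so the simulation does not give their rate of false calls. Correlations between arrays across spots ran from 0.016 to 0.37. Alternatives covered centring, zeros, a running median over 51 spots, the summary and scale of values, thresholds, log base, weights and leaving out arrays. Reading each Fcgr2b spot alone was added after seeing the data.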

Additional observations from a re-analysis of the deposited data

How the results depend on the processing

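The signs of all 6 member spots at all times held without centring, with zeros kept and with the running median removed, and no member gene mean changed sign when an array was left out. Leaving out 1 array put the mean over times between 0.154 and 0.212 for C1qb, 0.165 and 0.235 for Fcer1g, -0.104 and -0.064 for C1qc, -0.806 and -0.616 for Fcgr2b, and -0.176 and -0.024 for C1qa (-0.024 without the 2 h array, -0.176 without the 4 h array). Fcgr2b depended on its spots, with a mean of -0.247 by spot 13688 alone and -1.20 by spot 15871 alone. The log base and threshold set the counts past 2-fold. At 1, 2, 4 and 6 h they were 2299, 2457, 2377 and 4029 genes at 1.5-fold, 226, 176, 178 and 1091 at 3-fold, 22, 23, 23 and 93 with base-2 logs and 69, 59, 65 and 438 with natural logs. At 1.5-fold 3 of the 5 members passed at each time. Those 1.5-fold counts were 2299 of 9162, 2457 of 10151, 2377 of 10312 and 4029 of 10102 measured genes. At 2 h 0 members passed at 3-fold, with base-2 logs or with natural logs, and 0 passed with base-2 logs at 4 and 6 h and with natural logs at 6 h. With the running median removed 3 members passed at 6 h (beside 1921 of all genes, against 2211 without that step), the complement component median at 2 h was 0.034, the C1q domain medians at 2 and 6 h were 0.085 and -0.050, that of other Fc receptors at 6 h was 0.081, those of microglia markers at 4 and 6 h were 0.041 and 0.061, and that of B cell markers at 6 h was 0.091. The signalling median at 2 h was -0.0075 with zeros kept and 0.0024 with the median of a gene's spots, and the mast cell median at 1 h was 0.041 with zeros kept. limma's mean called 0 genes in each fit that left out an array and 2 with array weights, neither of them a member. Its slope called 0 to 399 genes when an array was left out, with 399 without the 4 h array. Leaving out 1 array put the mean of C9 between -0.026 (without 1 h) and 0.101, and that of Masp2 between -0.0014 (without 2 h) and 0.148. The cause of these changes was not tested. No paired analysis was possible because each time had 1 array. With no intensities used here, signal over background could not be examined, and 4 arrays limit the precision.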

Other observations

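As at Fcgr2b and Lin7c, a low spot stood beside higher spots of the same gene at Kl. Kl, a gene of choroid plexus and kidney, read -1.91, -0.86, -0.74 and -0.498 at 1, 2, 4 and 6 h at spot 13730, while its spots 2114 and 2148 read 0.49 and 0.71 at 1 h and lay between -0.15 and 0.088 later. Spot 13730 lies within 50 numbers of the other Fcgr2b spot, 13688.

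Among the remaining spots past 2-fold in the negative direction on all 4 arrays were Gabrr1, a subunit of GABA receptors at spot 16881 (-1.51, -0.71, -0.32 and -0.34), Prxl2c at spot 5560 and Car1 at spot 15631. At 1 h Gabrr1 had 2 measured spots, 1.53 apart, so the values of spot 16881 need not be those of the gene. Of 2 spots unnamed here, spot 7493 read -1.91, -0.64, -0.46 and -0.68, and spot 17646 read -1.15, -0.94, -1.05 and -0.64. For Gabrr1, Kl spot 13730, both unnamed spots and Fcgr2b spot 15871 the 1 h value was the lowest of the 4. The lowest value was at 6 h for Prxl2c and Cacna1b, at 4 h for Fbln2 and Lin7c spot 15868 and at 2 h for Car1.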
